A study of Arabidopsis thaliana with 6 samples.

Results

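The genes described here are the genes of the plastid chromosome that encode the photosynthetic apparatus and the machinery that expresses it, measured in *Arabidopsis thaliana* inflorescences, which hold flowers and their buds. The members are all plastid genes of the RefSeq gene table with a probe set of their own on the array, apart from the *ndh* genes. This gave 59 genes, each read by 1 probe set, out of 13286 genes with such a probe set. By their symbols 33 belong to photosynthesis (*psa*, *psb*, *pet*, *atp* and *rbcL*), 4 to the plastid RNA polymerase (*rpo*) and 15 to the plastid ribosome (*rps*, *rpl*). The other 7 are grouped by symbol alone, and some of them, such as *ycf3* and *ycf4*, act in photosystem I assembly. The wild type was the accession Landsberg *erecta*, and the second genotype was the mutant *top1α-2*, labelled as the same accession. Plants of both genotypes were grown under continuous light, with no age and no description of the allele in the sources used here. Each genotype was measured on 3 arrays that the series calls biological replicates. The values are log2 MAS5 signals of probe sets, which are sets of short probes against a transcript.

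The plastid chromosome descends from that of a cyanobacterium and keeps genes for the core of the photosynthetic complexes. Many of these genes are transcribed together as polycistronic RNAs, by a bacterial-type polymerase whose core subunits are the products of the *rpo* genes and by a phage-type polymerase encoded in the nucleus. The photosynthesis genes are known for depending mostly on the former, and the *rpo* and some ribosomal protein genes on the latter. Plastid mRNAs mostly lack the long poly(A) tails of nuclear mRNAs, and the sources used here do not name the labelling primer. A signal is therefore not read here as the amount of all transcripts of a gene, and a brighter probe set does not mean a more abundant transcript.

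Correlations between arrays, over the 11369 probe sets brighter than the median, were 0.955 to 0.985 for the same genotype and 0.887 to 0.938 for different ones. The probe set of the mutated gene is unnamed here, so the labels could not be checked by its signal. Of 14 pollen genes limma called all 14 lower in *top1α-2* at an adjusted p under 0.05, where 5.86% of all probe sets were. Their array means were 8.70 to 9.50 for wild-type and 7.19 to 7.28 for mutant arrays. Of 6 genes of the anther and tapetum limma called 5 lower. All 6 were separate between the genotypes in that direction, as were 14.5% of all probe sets. The array means of the 6 genes were 9.42 to 9.64 and 8.06 to 8.43. The signal of the tapetum gene *ATA27* averaged 13.60 in the wild type. These markers had been picked with earlier results of these data known, so they do not check the labels. Fewer cells of a type and less RNA per cell cannot be told apart in such samples, and the part of a changed make-up of the tissue in the plastid values was not tested.

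Each difference is log2 signal in *top1α-2* less that in the wild type, and a gene is called when its adjusted p in limma, over all 22746 probe sets, is under 0.05. Of the 59 plastid genes 5 were higher in *top1α-2*, namely *rpoC1*, *psbH*, *psbZ*, *petA* and *psbE*, and 0 were lower. The 5 genes rose by 0.54 to 0.80, or 1.45-fold to 1.74-fold. They are 8.47% of the members, where 3.40% of all probe sets were called higher and 5.86% lower. All 5 were among the 46 members with a mean signal over the median probe set, and of such bright probe sets 5.69% were called higher. At an unadjusted p under 0.05 by limma, 21 members were higher, or 35.6%, against 10.9% of all probe sets, and 0 were lower. The difference was positive in 51 members, or 86.4%, against 49.5% of all probe sets and 56.8% of the brighter ones, and negative in 8. The positive ones numbered 40 without wild-type replicate 3 and 46 without *top1α-2* replicate 2. The median over the 59 members was 0.40, against −0.0033 over all probe sets and 0.05 over the brighter ones.

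The calls were not stable under other settings. Without the variance prior that follows the signal, limma called 0 members, with 11 higher at an unadjusted p under 0.05. Of all probe sets it then called 0.919% higher, against 3.40% in the main fit. Without *top1α-2* replicate 1 it also called 0 members, with 12 at an unadjusted p under 0.05, and 1.57% of all probe sets. The count was 1 without *top1α-2* replicate 2, and 5 without *top1α-2* replicate 3, 3 of them the same genes. It was 3 without wild-type replicate 1, of which 1 was among the 5 genes of the main fit. It was 14 without wild-type replicate 2, 4 of them among those 5, and 1 without wild-type replicate 3, again among those 5. In the same order, 1.81%, 1.64%, 2.60%, 3.49% and 2.31% of all probe sets were called higher. After median centring 9 members and 5.07% of all probe sets were called higher.

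**Figure D1:**
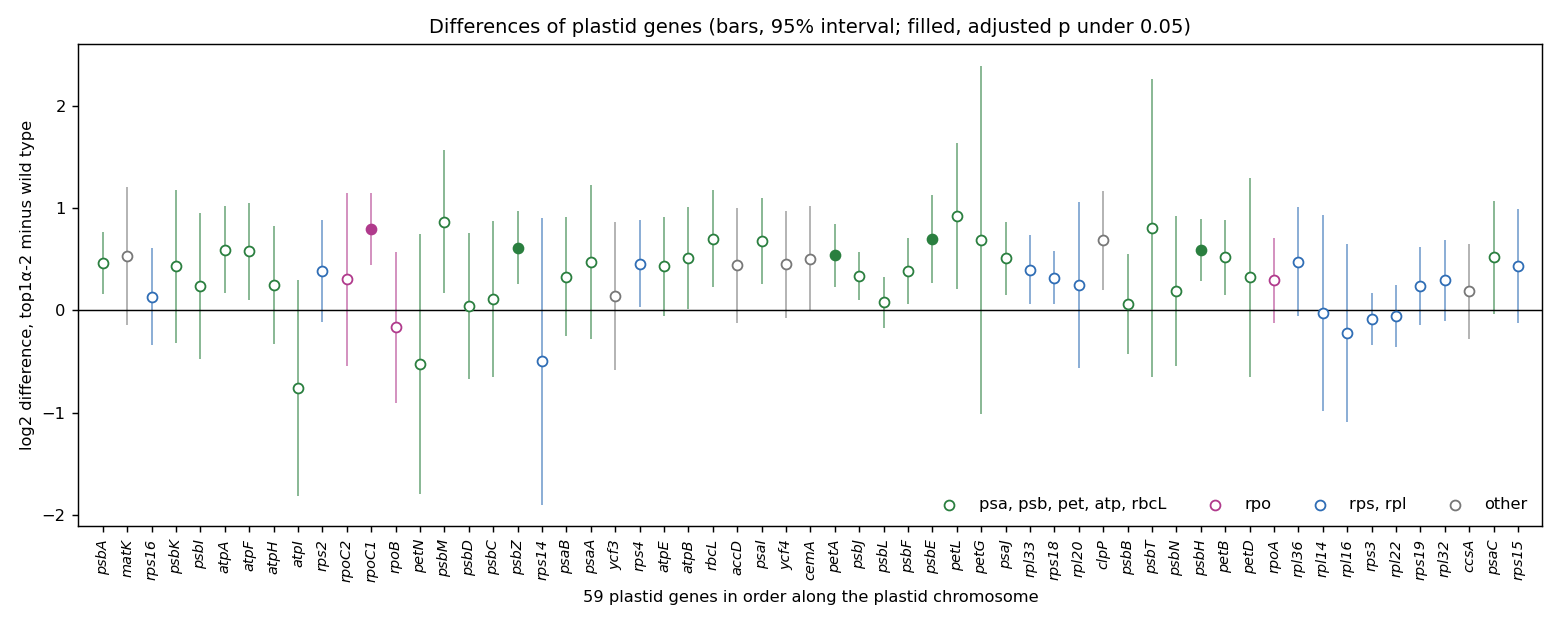
Log2 difference of each of the 59 plastid genes (vertical axis, *top1α-2* minus wild type) in the order of the genes along the plastid chromosome (horizontal axis), coloured by class, with 95% intervals of the limma fit. Filled points are the 5 genes called higher. Most points lie above 0, and the lowest, *atpI*, *petN* and *rps14*, have wide intervals that span 0.

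By class the median difference was 0.47 for the 33 photosynthesis genes, 0.30 for the 4 polymerase genes, 0.25 for the 15 ribosomal protein genes and 0.45 for the 7 others. Called higher were 4 of 33, 1 of 4, 0 of 15 and 0 of 7. Of all probe sets 3.40% were called higher, and of those above the median signal 5.69%. At an unadjusted p under 0.05 limma gave 16, 1, 3 and 1 genes as higher in the same order, against 10.9% of all probe sets. A positive difference was found in 31 of 33 photosynthesis genes, 3 of 4 polymerase genes, 10 of 15 ribosomal protein genes and 7 of 7 others. The 3 mutant values lay above the 3 wild-type values in 11 photosynthesis genes, 1 polymerase gene, 2 ribosomal protein genes and 1 other gene, which is 15 of the 59 members, or 25.4%. Such a separation was present in 13.7% of all probe sets. In the opposite direction 0 members and 14.5% of all probe sets were separated. The shares of 10.9%, 13.7% and 14.5% take in dim probe sets, and none was computed for the brighter ones alone. Differences between the classes were not tested.

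Averaged over its genes, each class overlapped between the genotypes. Within each class every mutant array lay above the wild-type array of the same replicate number, by as little as 10.13 against 10.12. That arrays of the same number form pairs is not established. The photosynthesis class had means of 9.89, 9.82 and 9.35 on wild-type replicates 1, 2 and 3 and of 10.21, 10.31 and 9.73 on *top1α-2* replicates 1, 2 and 3. In each genotype replicate 3 was the lowest, and the mutant replicate 3 lay below the wild-type replicates 1 and 2. The ribosomal class had means of 10.12, 10.05 and 9.69 in the wild type and of 10.13, 10.40 and 9.83 in *top1α-2*, and the mutant replicate 1 was at the level of wild-type replicate 1. The polymerase class had 8.80, 8.73 and 8.25 in the wild type and 9.0, 9.14 and 8.56 in the mutant, again with replicate 3 lowest. The remaining class had 9.73, 9.98 and 9.39 against 10.22, 10.26 and 9.88, and here the mutant replicate 3 lay just below the highest wild-type array. Without wild-type replicate 3 the medians of the 4 classes were 0.34, 0.02, 0.11 and 0.31, in the order above, and the median of all members was 0.22. Without *top1α-2* replicate 2 the polymerase median was 0.07 and the ribosomal one 0.17. Without *top1α-2* replicate 3 the polymerase median was 0.54, and without wild-type replicate 2 it was 0.46 and that of the 7 others 0.73.

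**Figure D2:**
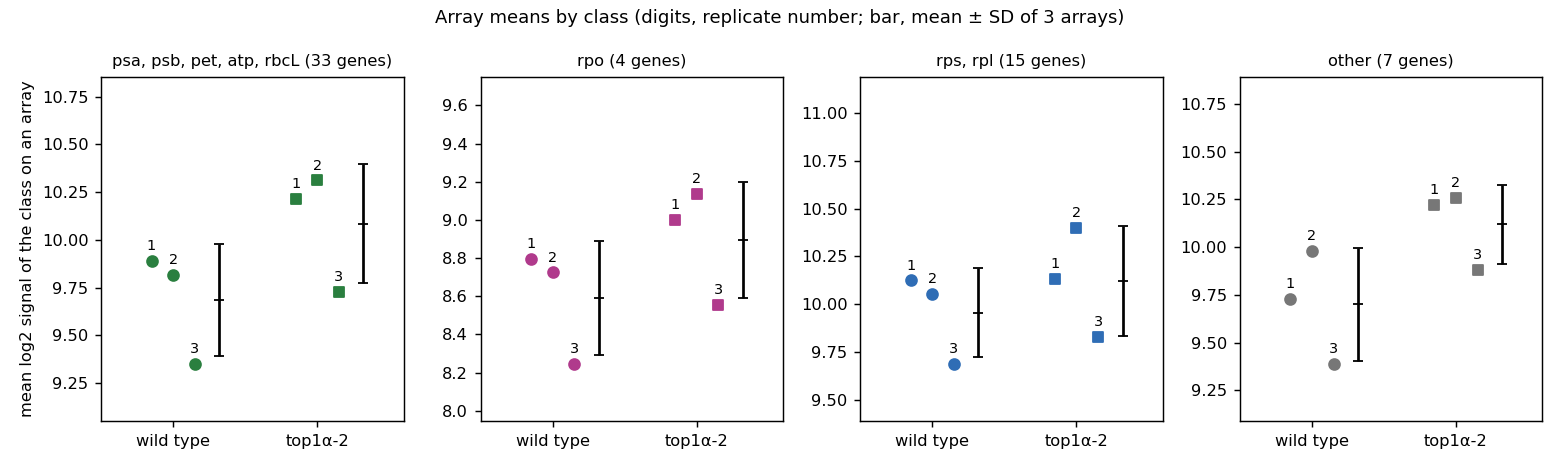
Mean log2 signal of each class on each array (vertical axis), by genotype, with the replicate number beside each point and the mean ± SD of the 3 arrays as a bar. The vertical axes span the same range of log2 units and start at different values. In every class replicate 3 is the lowest array of its genotype, and the genotypes overlap. Each mutant point lies above the wild-type point of the same replicate number, though the numbers do not establish pairs.

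Among the polymerase genes, *rpoC1* (ArthCp013) encodes a portion of the catalytic β′ subunit of the bacterial-type enzyme, which in plastids is split between *rpoC1* and *rpoC2*. Its signals were 9.01, 8.68 and 8.47 in the wild type and 9.67, 9.58 and 9.30 in *top1α-2*. Every mutant array was above every wild-type array, and the gene rose by 0.80 (SE 0.16, limma adjusted p 0.00976.) The call was lost without *top1α-2* replicate 1, at an adjusted p of 0.0554, and kept with each of the other 5 arrays left out. Its neighbours in the same transcription unit were not called, and differences between these genes were not tested. The gene *rpoC2*, for the other portion, had signals of 8.38, 8.29 and 7.01 in the wild type and 8.05, 8.88 and 7.66 in the mutant. These overlapped, with a difference of 0.30 and a 95% interval from −0.54 to 1.15, which includes the difference of *rpoC1*. The difference of *rpoC2* was −0.14 without wild-type replicate 3 and −0.04 without *top1α-2* replicate 2. The gene *rpoB*, of the β subunit, was dim, with wild-type signals of 5.90 ± 0.08 and mutant signals of 5.73 ± 0.21 (SD, n = 3), a difference of −0.17 that turned to 0.05 after quantile normalization. *rpoA*, of the α subunit, lies in another unit and had a difference of 0.29 with a limma adjusted p of 0.395.

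Photosystem II splits water and passes electrons on, and 15 of its plastid genes were measured. All 15 differences were positive, and the median was 0.39. Of the 15 genes 3 were called, where 3.40% of all probe sets and 5.69% of the brighter ones were called higher. The small phosphoprotein gene *psbH* (ArthCp052) had signals of 11.49, 11.79 and 11.60 in the wild type and 12.26, 12.40 and 11.98 in *top1α-2*. The groups were separate, and the gene rose by 0.59 (SE 0.14, limma adjusted p 0.0227.) Its adjusted p was 0.0845, 0.0893, 0.0592 and 0.0836 without *top1α-2* replicates 1 and 2 and wild-type replicates 1 and 3. *psbZ* (ArthCp019), of another small subunit, had 10.71, 10.50 and 10.67 against 11.56, 11.29 and 10.87. It rose by 0.61 (SE 0.16, limma adjusted p 0.0382), and among the settings with 1 array left out it stayed called only without *top1α-2* replicate 3, its lowest mutant array, at 0.00787. With each of the other 5 arrays left out its adjusted p was 0.0558 to 0.13.

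*psbE* (ArthCp039) encodes a cytochrome subunit of the reaction centre. Its mutant signals were nearly equal, at 11.80, 11.85 and 11.88, while the wild type spread over 10.66, 11.60 and 11.17. It rose by 0.70 (SE 0.19, limma adjusted p 0.0493.) The call was lost at 0.0681 after quantile normalization and at 0.0635 with a pseudocount of 16, and with 1 array left out it was kept only without wild-type replicate 2, at 0.00443. With any other array left out its adjusted p was 0.0762 to 0.136.

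The genes *psbA*, *psbD*, *psbB* and *psbC*, of the chlorophyll-binding proteins at the core of photosystem II, were not called. *psbA*, of the reaction-centre protein that turns over fastest in light, had signals of 8.94, 8.73 and 8.90 in the wild type and 9.54, 9.34 and 9.08 in *top1α-2*. The genotypes did not overlap, and the difference was 0.46 with a 95% interval from 0.16 to 0.77, but the limma adjusted p of 0.0653 missed the threshold. It was 0.0303 after median centring and 0.0451 without *top1α-2* replicate 3, and up to 0.221 under the other alternatives. *psbD*, of the partner reaction-centre protein, had 7.92, 8.31 and 7.84 against 7.97, 8.88 and 7.35. Its mutant values spanned the wild-type ones, and the difference was 0.04 with an interval from −0.67 to 0.76. *psbB* and *psbC*, of the inner antenna proteins that bind chlorophyll, had differences of 0.06 and 0.11, with intervals from −0.43 to 0.55 and from −0.65 to 0.87. The intervals of *psbA*, *psbD* and *psbC* include the differences of the 3 called photosystem II genes, and that of *psbB* ends below them. Differences between genes were not tested. With alternatives the values ranged from −0.36 to 0.40 for *psbD*, from −0.22 to 0.23 for *psbB* and from −0.22 to 0.56 for *psbC*, on both sides of 0.

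*psbM*, of another small subunit, had the brightest of the 59 probe sets. Its signals were 14.02, 13.72 and 12.64 in the wild type and 14.67, 14.15 and 14.16 in *top1α-2*. They did not overlap, and wild-type replicate 3 lay far below the other wild-type arrays. The difference was 0.87 (SE 0.32, limma adjusted p 0.127), which was 0.0445 without wild-type replicate 1 and up to 0.347 under other alternatives. *psbF*, of the partner cytochrome subunit of *psbE*, and *psbJ*, of a small subunit, were also separate between the genotypes, with differences of 0.39 and 0.33 and limma adjusted p values of 0.14 and 0.0835. *psbK* and *psbI*, which encode small subunits and lie side by side, had differences of 0.43 and 0.24.

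The cytochrome complex links the photosystems, and *petA* (ArthCp035) encodes its cytochrome f. Its signals were 10.43, 11.00 and 10.61 in the wild type and 11.15, 11.28 and 11.22 in *top1α-2*. The mutant arrays were close together and above all wild-type arrays, and *petA* rose by 0.54 (SE 0.14, limma adjusted p 0.0392.) With 1 array left out it stayed called only without wild-type replicate 2, at 0.00405, and had 0.0931 to 0.128 otherwise. *petB*, of the cytochrome that carries electrons across the membrane, had 13.11, 13.36 and 13.49 against 14.07, 13.76 and 13.69. These were also separate, with a difference of 0.52 and a limma adjusted p of 0.0827. *petL*, of a small subunit, had the largest difference of all members, 0.92, with values of 7.59, 6.47 and 6.54 against 8.04, 8.0 and 7.33 that overlapped and a limma adjusted p of 0.112. *petD*, of the subunit that pairs with *petB*, was the dimmest of the members, with wild-type signals of 5.19 ± 0.54 and mutant signals of 5.51 ± 0.31 (SD, n = 3).

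**Figure D3:**
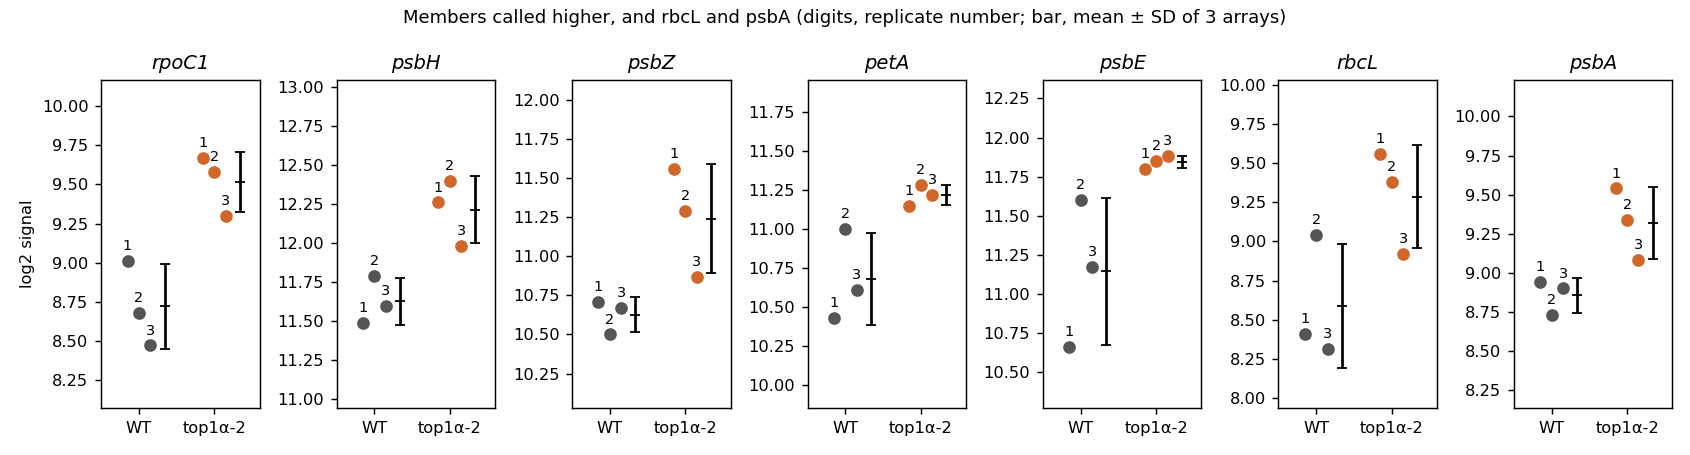
Log2 signals of the 5 genes called higher and of *rbcL* and *psbA* (vertical axis) by genotype, with the replicate number beside each point and the mean ± SD of 3 arrays as a bar. Each panel spans the same range of log2 units around its own centre. The mutant points of the 5 called genes and of *psbA* lie above all wild-type points, while in *rbcL* mutant replicate 3 at 8.92 lies below wild-type replicate 2 at 9.04.

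Of photosystem I, 5 genes were measured, all with positive differences and none called. By limma 2 were higher at an unadjusted p under 0.05, against 10.9% of all probe sets. The small-subunit genes *psaI* and *psaJ* were the ones whose genotypes did not overlap. *psaI* had 9.66, 9.75 and 9.01 in the wild type and 10.35, 10.18 and 9.91 in *top1α-2*, with a difference of 0.67 and a limma adjusted p of 0.0527. *psaJ* had 11.66, 12.31 and 12.03 against 12.61, 12.37 and 12.54, with a difference of 0.51 and a limma adjusted p of 0.0843. *psaA* and *psaB*, of the core proteins that carry the reaction centre, had differences of 0.47 and 0.33 with SEs of 0.34 and 0.26, and *psaC*, of the iron-sulfur subunit, had 0.52 with an SE of 0.25. All 3 overlapped between the genotypes.

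The ATP synthase uses the proton gradient, and 5 of its 6 plastid genes had positive differences, with 0 called. By limma 3 were higher at an unadjusted p under 0.05, against 10.9% of all probe sets. *atpA* and *atpB*, of the subunits of the catalytic head, had differences of 0.59 and 0.51 with SEs of 0.19 and 0.22. *atpA* had 11.78, 12.25 and 11.60 in the wild type and 12.73, 12.53 and 12.15 in *top1α-2*, so that a single mutant array fell within the wild-type range. *atpF* and *atpH*, of the membrane part, had 0.58 and 0.25, and *atpE*, of the head's stalk, had 0.43. The sixth gene, *atpI*, was dim and had the lowest difference of all members, −0.76 with a 95% interval from −1.81 to 0.29. Its wild-type signals were 7.24, 5.91 and 5.40 and its mutant signals 5.35, 5.60 and 5.32, so that wild-type replicate 1 alone stood high.

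*rbcL* (ArthCp030) encodes the large subunit of Rubisco, the enzyme that fixes carbon dioxide. Its signals were 8.41, 9.04 and 8.31 in the wild type and 9.56, 9.38 and 8.92 in *top1α-2*. The groups overlapped by 1 array, and the difference of 0.70, with an SE of 0.21, had a limma adjusted p of 0.0716. The adjusted p was 0.0455 after median centring, 0.043 without *top1α-2* replicate 3 and 0.0127 without wild-type replicate 2, and it ranged from 0.0127 to 0.25 over the 12 alternatives.

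Ribosomal proteins of the small subunit were measured through 8 genes and those of the large subunit through 7, with median differences of 0.28 and 0.25. *rps18* and *rpl33*, which lie side by side, were those whose genotypes did not overlap. *rps18* had 10.55, 10.30 and 10.45 in the wild type and 10.94, 10.63 and 10.68 in *top1α-2*, a difference of 0.32 with a limma adjusted p of 0.131. *rpl33* had 12.14, 12.62 and 12.63 against 12.97, 12.82 and 12.79, a difference of 0.40 with a limma adjusted p of 0.148. *rps4*, the brightest ribosomal probe set, had a difference of 0.46 with a limma adjusted p of 0.182. *rps14*, the dimmest, had 7.16, 5.19 and 4.84 in the wild type and 5.37, 5.86 and 4.46 in *top1α-2*. Its difference of −0.50 had a 95% interval from −1.90 to 0.90, and it was 0.22 without wild-type replicate 1.

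The longest run of neighbouring members with negative differences, 4 genes, was in the ribosomal class. In the order of transcription these are *rpl22*, *rps3*, *rpl16* and *rpl14*, with differences of −0.06, −0.08, −0.22 and −0.03. These signs were not stable, as they turned under 3, 1, 2 and 6 of the 12 alternatives, and after median centring *rpl22*, *rps3* and *rpl14* were positive. *rps3* was among the most even members, with 12.40, 12.54 and 12.37 in the wild type and 12.30, 12.44 and 12.32 in *top1α-2*. The 95% interval of its difference ran from −0.33 to 0.17, below the differences of the 5 called genes. Those genes were called on these same arrays, their differences have errors of their own, and differences between genes were not tested. The interval of *rpl22* ran from −0.36 to 0.25. For *rpl16* and *rpl14* the intervals were wide, from −1.09 to 0.65 and from −0.99 to 0.93, since mutant replicate 2 stood high at 10.16 and 10 against 8.71 and 8.58, and 8.33 and 7.98, on the other mutant arrays. The flanking genes of the same unit, *rps19* upstream and *rpl36* and *rpoA* downstream, had 0.24, 0.48 and 0.29. Genes annotated in 2 copies per chromosome are read by probe sets shared between the copies. Among them *rpl2* and *rpl23* had differences of 0.08 and 0.07, with SEs of 0.22 and 0.20. The rest were *rps12* with 0.22 and 0.33, *rps7* with 0.21, *ycf1* with 0.06 and *ycf2* with −0.18, and none was called.

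Values of genes that share a transcription unit are given side by side. Units were taken from textbook knowledge with the values already known, and differences within them were not tested. In the unit from *psaI* to *petA* the 4 values were 0.67, 0.45, 0.50 and 0.54. The pairs *atpB* and *atpE*, and *rpl33* and *rps18*, had 0.51 and 0.43, and 0.40 and 0.32. In the unit from *psbE* to *psbJ* they were 0.70 for *psbE*, 0.39 for *psbF*, 0.08 for *psbL* and 0.33 for *psbJ*. The probe set of *psbL*, of another small subunit of photosystem II, was steady, with 9.63, 9.38 and 9.71 in the wild type and 9.67, 9.60 and 9.68 in *top1α-2*, and its 95% interval from −0.18 to 0.33 leaves out the value of *psbE*. In the unit from *psbB* to *petD* they were 0.06, 0.80, 0.59, 0.52 and 0.32, of which *psbT* and *petD* were dim. From *psbD* to *psbZ* they were 0.04, 0.11 and 0.61, and from *rps2* to *atpA* they ranged from −0.76 to 0.59.

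**Figure D4:**
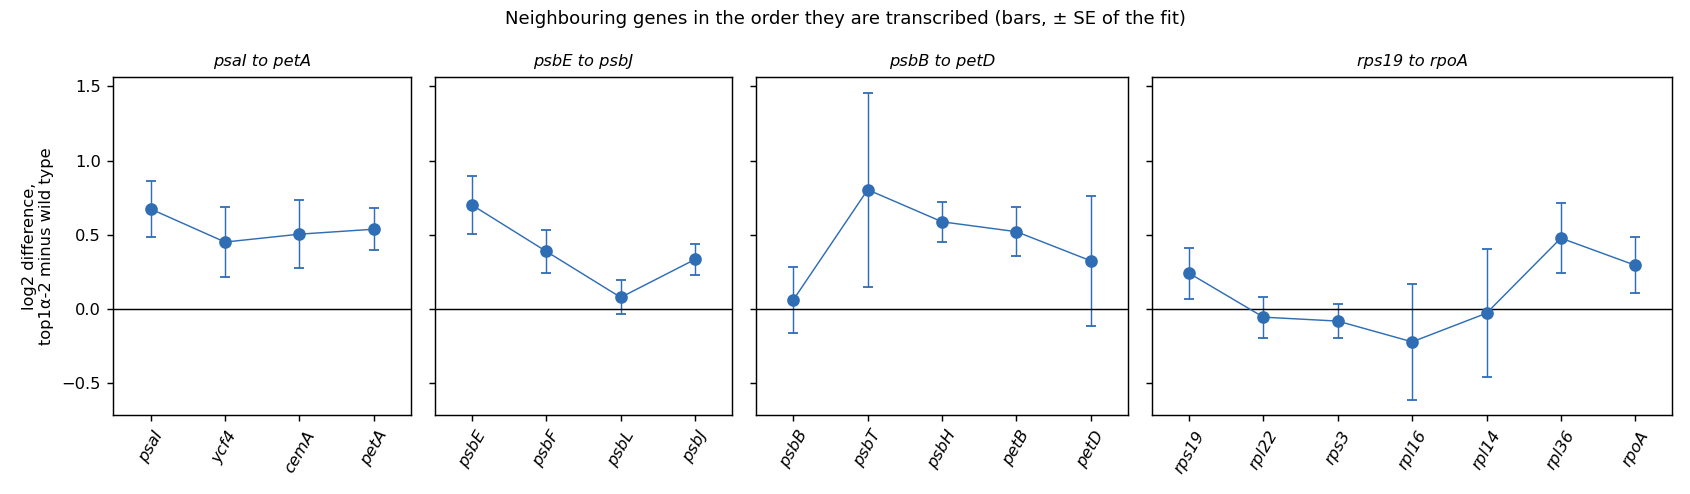
Log2 difference (vertical axis, *top1α-2* minus wild type, ± SE of the limma fit) of neighbouring genes in 4 transcription units, in the order of transcription (horizontal axis). In the first unit the 4 values lie between 0.45 and 0.67. In the last unit the 4 genes from *rpl22* to *rpl14* lie just below 0, between genes with positive values, and after median centring only *rpl16* of the 4 stayed negative.

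The 7 other genes all had positive differences, from 0.14 to 0.68. *clpP*, of the proteolytic subunit of the plastid Clp protease, had 10.78, 11.74 and 11.47 in the wild type and 12.24, 12 and 11.80 in *top1α-2*. These did not overlap, and the difference was 0.68 with a limma adjusted p of 0.0821. *cemA* and *ycf4*, of an envelope membrane protein and of an assembly factor of photosystem I, had differences of 0.50 and 0.45 with limma adjusted p values of 0.225 and 0.293. Both were low in wild-type replicates 1 and 3, and without wild-type replicate 2 their adjusted p values were 0.00486 and 0.00697, while under other alternatives these reached 0.482 and 0.583. *accD*, of the acetyl-CoA carboxylase that starts fatty acid synthesis, had 0.44, and *matK*, of an intron maturase, 0.53, with SEs of 0.25 and 0.30. *ccsA*, of cytochrome c maturation, had 0.19. The dimmest, *ycf3*, of photosystem I assembly, had 0.14, which was −0.21 without wild-type replicate 3 and −0.01 without *top1α-2* replicate 2.

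The members shared array-to-array movements that the genotype does not describe. In 32 of the 59 genes, or 54.2%, replicate 3 was the lowest array in both genotypes, which held for 12.5% of all probe sets. In *top1α-2* alone replicate 3 was lowest in 47 members, or 79.7%, against 32.1% of all probe sets. The 13 members at or below the median signal had a further feature. In 12 of them wild-type replicate 1 was the highest wild-type array, against 38.8% of all such dim probe sets and 13 of the 46 brighter members. *petN*, of a small subunit of the cytochrome complex, had 7.89, 5.26 and 5.97 in the wild type and 5.96, 5.92 and 5.67 in *top1α-2*. *psbT*, of a small subunit of photosystem II, had 8.21, 5.67 and 5.57 against 7.60, 7.94 and 6.32. *petG* had 7.80, 6.11 and 4.86 against 7.75, 7.74 and 5.34. In all 3 the wild-type SD was 1.36 to 1.5, and none was called. On wild-type replicate 1 the pollen genes were at their highest mean, 9.50, beside 8.70 and 8.90 on replicates 2 and 3, and its part in these values was not tested.

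**Figure D5:**
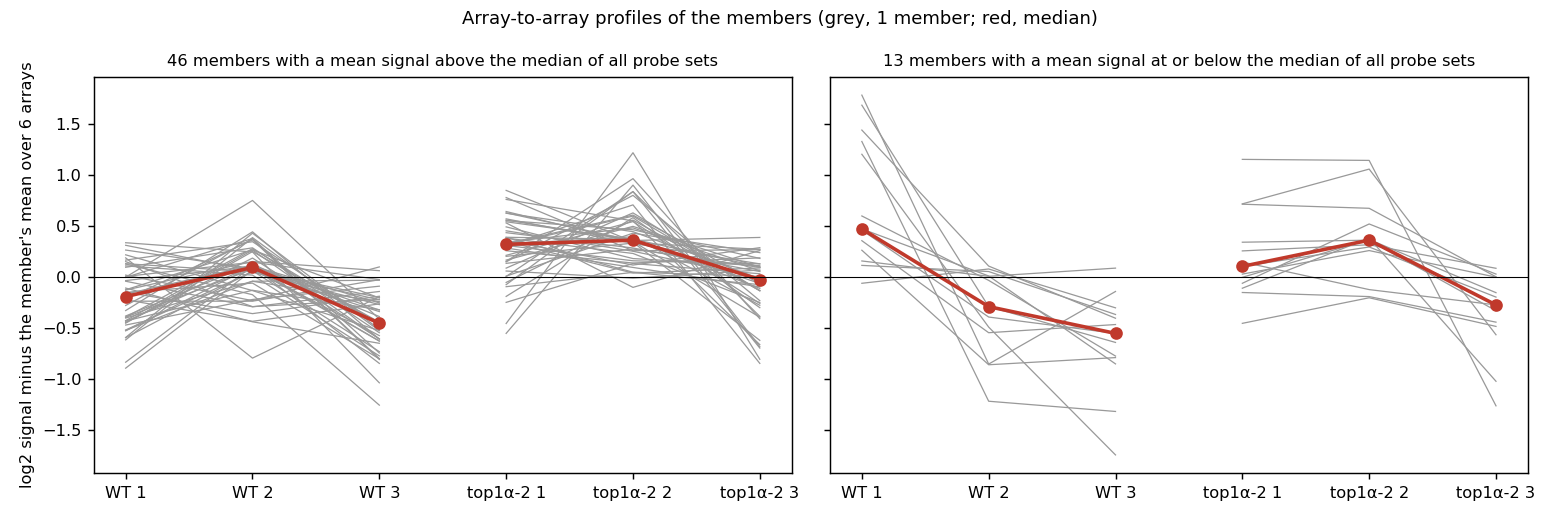
Log2 signal of each member minus its own mean over the 6 arrays (vertical axis), by array (horizontal axis), for the 46 brighter members (left) and the 13 members at or below the median signal of all probe sets (right). Grey lines are members and the red line is their median. The median is lowest on replicate 3 of each genotype in both panels, and in the right panel it is 0.47 on wild-type replicate 1 against −0.29 and −0.55 on replicates 2 and 3.

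Nuclear genes of the same pathway were sparsely covered. Of 21 nuclear genes listed for the plastid RNA polymerases, 13 for plastid RNA processing and 3 for plastid DNA topology, 1 of each list had a probe set of its own that is named here, and limma called 0 of the 3. The locus AT5G15700, given as *RPOTmp* in the first list, had 6.62, 6.69 and 6.57 in the wild type and 3.46, 5.57 and 6.43 in *top1α-2*. This probe set was dim, with means of 6.63 and 5.15 against a median of 7.73 over all probe sets. All mutant arrays were below the wild type but spread widely, and the difference of −1.47, with an SE of 0.63, had a limma adjusted p of 0.193. AT5G42310, from the second list, and AT4G31210, from the third, had differences of 0.29 and 0.23 with adjusted p values of 0.201 and 0.31. At an unadjusted p under 0.05 the first was lower and the second higher.

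Nuclear genes for photosystem, antenna and ATP synthase proteins and for Rubisco activase were matched by symbol or synonym. The match gave 14 genes, of which 2 were called higher, where 3.40% of all probe sets and 5.69% of the brighter ones were, and 0 lower. Of these, 3 (*PTL*, *PDIL5-1* and *PCME*) were matched only through a synonym and belong to other functions. The other 11 all had positive differences, with a median of 0.51, and in 10 of them the mutant arrays lay above the wild type, against 13.7% of all probe sets. *LHCB4.2*, of an antenna protein, rose by 0.79 with a limma adjusted p of 0.00484, and *PSBW*, another component of photosystem II, rose by 0.58 with 0.0216. *PSAE-1*, of a photosystem I subunit, had the smallest p of those not called, with a difference of 0.57 and an adjusted p of 0.0645. Array means of the 11 genes ran from 11.81 to 12.27 for the wild type and from 12.47 to 12.71 for the mutant, and here the lowest wild-type array was replicate 1, not replicate 3. The 10 plastid *ndh* genes with a probe set of their own had 3 called higher, against the same 3.40%, 0 lower and a median of 0.42.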

How the data were processed

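RNA of 6 inflorescence samples, 3 per genotype, was hybridised to arrays of 22810 probe sets. The deposited values are log2 signals, made with affy and MAS5 per the submitters' processing notes, for which the sources used here give no version or filter. Unlogged, each array's mean trimmed by 2% at both ends came to 500.0. The number of arrays limits the precision, and detection calls were left out. After 64 control probe sets were set aside, limma 3.58.1 (R 4.3.3) was run on 22746 probe sets (lmFit, eBayes with a signal-dependent variance prior, genotype alone, Benjamini-Hochberg over all probe sets), with no pseudocount or filter. The script was tested on simulated data. Of 13513 single-gene probe sets in the platform annotation, 13436 matched the RefSeq table of TAIR10.1 by gene identifier, which gave symbols and gene order. Of 67 plastid symbols for proteins other than *ndh*, 59 had a single-gene probe set, and the other 8 were not analysed as members.

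Members and lists were chosen with earlier results of these data known. Named with full values were called members, the 3 with the smallest p, the brightest and the dimmest of each class, and *rbcL* and *psbA*; others were named after their values were seen. Alternatives were quantile normalization, median centring, a replicate block, no variance trend, a pseudocount of 16, no dim probe sets, and each array left out. No probe set sequences were used here.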

Additional observations from a re-analysis of the deposited data

Results flagged for a closer look

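Among the control probe sets, which the comparison does not use, an actin control set the genotypes apart. Such 3′ minus 5′ log2 signals are used to judge RNA integrity. Here the value averaged 3.57 (SD 0.19) over 3 wild-type arrays and 4.03 (SD 0.07) over 3 mutant arrays, a difference of 0.46 with separate ranges. In the other 5 ratios of this kind the ranges overlapped, and the second actin control averaged 0.70 and 0.74. Whether RNA integrity differed between the genotypes, and the part of the first actin ratio in the plastid values, were not tested.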

How the results depend on the processing

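In place of 5 plastid genes called higher, limma called 9 after median centring, 12 with the replicate number as a block and 0 without the variance trend, and 0 to 14 with 1 array left out. It called 0 lower under each of the 12 alternatives run. The replicate block kept all 5 calls and added 7, *rbcL* among them. The replicate numbers do not establish pairs: deviations of same-numbered arrays correlated at 0.001 to 0.028 over all probe sets, though at 0.089 to 0.208 over the brighter ones, where each array correlated best with its own number. Among all probe sets 773 were higher and 1334 lower, 748 and 1342 with the block, and 209 and 633 without the trend. They were 1153 and 1167 after median centring, and 357 to 794 and 975 to 1335 with 1 array left out. The median of the 7 other plastid genes ranged from 0.31 to 0.73, that of photosynthesis genes from 0.34 to 0.60, that of polymerase genes from 0.02 to 0.54 and that of ribosomal protein genes from 0.11 to 0.37 with 1 array left out; under the other alternatives each moved by less than the SD between arrays. Among all 59 members, 19 turned sign under at least 1 of the alternatives, 0 of them called, and 18 members not called were called under at least 1. Among the 21 members named by the rule the sign turned for *rpoB* after quantile normalization, to 0.045, and with 1 array left out the range crossed 0 for *rpoC2* (−0.14 to 0.57), *ycf3* (−0.21 to 0.47) and *rps14* (−0.95 to 0.22). None of these 4 was called. The cause of these changes was not tested. Every member had 1 single-gene probe set, so the alternative of using several gave no other value. Of the 13 members at or below the median signal 0 were called and 1 had an unadjusted p under 0.05 by limma.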
